A study of Mus musculus with 4 samples.

Results

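The 40 genes described here encode proteins that copy the DNA in S phase and divide the chromosomes in mitosis. They were taken by symbol from the deposited count table, in which all 40 were present among 22063 genes listed. The list was given by symbol, with no threshold on a measured value, at a time when earlier results of these data were known. By their roles they were split into 15 replication genes, 9 genes of the G1/S step and 16 mitotic genes. The deposited annotation places 26 of them in the KEGG pathway of the cell cycle and 7 in that of DNA replication. The 4 libraries came from TKPT cells, a mouse proximal tubular epithelial cell line of the kidney, all kept for 24 h in 1% O2 and 5% CO2 and then for 12 h in normal oxygen. There were 2 libraries transfected with a scrambled siRNA, labelled wild type (Scrambled, replicates 2 and 3), and 2 with an siRNA against *Itgb6*, the β6 integrin subunit, labelled Itgb6 knockdown (Itgb6-siRNA, replicates 1 and 3). Nothing in the labels says that the replicates were separate cultures, so the p-values measure only the spread between these libraries, which may be technical.

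Before S phase, the origin recognition complex, CDC6 and CDT1 load the ring of the MCM2 to MCM7 proteins onto DNA, and geminin blocks a second loading. Cyclin D with CDK4 or CDK6, and cyclin E with CDK2, release the E2F factors that switch on the replication genes. Later, the MuvB complex with B-MYB and FOXM1 turns on the mitotic genes through a promoter element called the CHR, and NF-Y binds CCAAT boxes in many of these promoters. In the kidney, tubular cells seldom divide in health and enter the cycle after injury, whereas a cell line in culture keeps dividing.

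*Itgb6*, the gene the siRNA was made against, was at 17.5 and 16.4 CPM (counts scaled to the size of the library) in the Scrambled libraries and at 18.0 and 15.8 CPM in the libraries labelled Itgb6-siRNA. The log2 difference was -0.01 (95% interval -0.27 to 0.26, adjusted p = 0.991), so no lower level of the target was measured, and group names here are those of the labels only. The libraries held 15435087 to 17220285 counts, and the 40 genes took 0.889 to 0.91% of them in each library. Mitochondrial genes took 2.46% and 2.55% of the counts in the Scrambled and 2.96% and 2.91% in the Itgb6-siRNA libraries. Of 16 markers of the proximal tubule, 9 were under 1 FPKM, and the transporters *Slc34a1*, *Slc5a2*, *Slc5a12*, *Slc22a6* and *Slc22a8* had no counts, while all 5 epithelial markers were present. The summed proximal tubule markers lay at 279 to 308 FPKM in Scrambled and 313 to 335 FPKM in Itgb6-siRNA, and the epithelial ones at 2881 to 2888 and 2739 to 2769 FPKM. Most of the proximal tubule sum came from *Havcr1* and *Pax8*, which were singled out after their values were seen. *Havcr1* was at 121.7 and 125.4 FPKM in Scrambled and 139.0 and 140.3 FPKM in Itgb6-siRNA. *Pax8* overlapped, at 115.1 and 134.7 FPKM and at 141.7 and 121.4 FPKM. Of the other cell types, the 6 fibroblast markers were all under 1 FPKM with *Acta2* at 0, and 3 of 4 endothelial and 4 of 6 leukocyte markers were under 1 FPKM, with *Cd3e* at 0. The leukocyte sum was 92.6 to 100 FPKM in Scrambled and 84.4 to 93.2 FPKM in Itgb6-siRNA, most of it from *Cd68* (85.5 and 93.0 FPKM against 80.8 and 78.8 FPKM), which was singled out after its values were seen. The fibroblast sum was 0.593 to 0.715 and 0.697 to 1.24 FPKM, and the endothelial sum 0.819 to 1.09 and 0.671 to 2.06 FPKM. The part of these shifts in the values of the 40 genes was not tested.

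The promoters of replication and mitotic genes carried different letters. RefSeq promoters on GRCm38.p6 were found for 31 of the 40 genes, and the 250 bases before the start were searched on both strands. An E2F-type run (TTTCCCGC, TTTCGCGC, TTTGCCGC or TTTGGCGC) was present in 5 of 12 replication genes (41.7%), 1 of 6 G1/S genes (16.7%) and 1 of 13 mitotic genes (7.7%), and in 2.2% of all 27025 genes with a promoter. A CHR-type run (TTTGAA or TTCGAA) was present in 2 of 12 replication genes (16.7%), 0 of 6 G1/S genes and 7 of 13 mitotic genes (53.8%), and in 19.6% of all. CCAAT boxes were in 9 of 12 replication genes (75%), 2 of 6 G1/S genes (33.3%) and 12 of 13 mitotic genes (92.3%), against 37.5% of all. None of these runs contains a run of another kind, and E2F-type runs on opposite strands can overlap. A match is a string of letters and not a shown binding site. The 200 bases before the start are printed for 3 helicase genes and 3 mitotic genes, whose levels are described further on, 5′ to 3′ on the strand of the gene. The capitals mark CCAAT, CHR-type and E2F-type runs, read on either strand.
*Mcm3*, chr1:20820313-20820512, minus strand: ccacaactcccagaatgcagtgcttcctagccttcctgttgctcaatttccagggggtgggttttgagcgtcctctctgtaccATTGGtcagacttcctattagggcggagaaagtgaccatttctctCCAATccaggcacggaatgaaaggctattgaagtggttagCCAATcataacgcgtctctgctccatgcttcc
*Mcm5*, chr8:75109309-75109508, plus strand: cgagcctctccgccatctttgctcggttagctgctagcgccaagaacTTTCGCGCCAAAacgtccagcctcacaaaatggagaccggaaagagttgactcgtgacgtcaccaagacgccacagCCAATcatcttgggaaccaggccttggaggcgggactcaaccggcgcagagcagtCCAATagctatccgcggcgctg
*Mcm6*, chr1:128359706-128359905, minus strand: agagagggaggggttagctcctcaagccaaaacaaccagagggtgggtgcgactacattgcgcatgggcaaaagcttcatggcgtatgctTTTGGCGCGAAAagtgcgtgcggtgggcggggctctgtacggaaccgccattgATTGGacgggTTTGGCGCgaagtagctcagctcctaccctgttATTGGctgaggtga
*Top2a*, chr11:99024190-99024389, minus strand: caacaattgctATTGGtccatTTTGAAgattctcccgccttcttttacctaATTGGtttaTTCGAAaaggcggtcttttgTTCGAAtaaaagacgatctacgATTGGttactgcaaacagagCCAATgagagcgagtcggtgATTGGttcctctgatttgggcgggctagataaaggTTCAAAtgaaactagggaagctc
*Kif11*, chr19:37376182-37376381, plus strand: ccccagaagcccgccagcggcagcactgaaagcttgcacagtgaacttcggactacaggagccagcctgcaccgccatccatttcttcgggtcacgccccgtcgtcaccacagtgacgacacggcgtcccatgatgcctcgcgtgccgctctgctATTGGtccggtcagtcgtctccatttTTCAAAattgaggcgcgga
*Ccnb2*, chr9:70421555-70421754, minus strand: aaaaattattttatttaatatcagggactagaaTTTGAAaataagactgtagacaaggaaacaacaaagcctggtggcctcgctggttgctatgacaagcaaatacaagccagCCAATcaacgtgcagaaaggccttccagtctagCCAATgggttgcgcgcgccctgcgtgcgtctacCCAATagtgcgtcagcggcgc

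Of these, *Mcm5* and *Mcm6* held E2F-type runs, 2 and 3 in number, and *Mcm3* held 3 CCAAT boxes with neither of the other runs. *Top2a* had the most, with 4 CHR-type runs and 6 CCAAT boxes in its 250 bases, of which 5 CCAAT boxes lie in the stretch shown. *Kif11* had 1 of each of these, and *Ccnb2* had 1 CHR-type run and 3 CCAAT boxes. Among the promoters found, *Cdk1* was the mitotic gene with all 3 kinds of run. Genes with and without these runs overlapped in their differences. The median log2 difference between the labelled groups was 0.02 for the 9 genes with a CHR-type run (range -0.18 to 0.20) and 0.00 for the 22 without (range -0.15 to 0.33). It was 0.09 for the 7 genes with an E2F-type run (range -0.08 to 0.12) and 0.00 for the 24 without. These are descriptions with no test.

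The 40 genes were among the more strongly expressed in these cells. Their median level was 70.4 FPKM, the deposited reads per length and depth, averaged over the 4 libraries, against 9.07 FPKM for the 11727 genes tested. The median was 70.4 FPKM for replication genes, 23.5 FPKM for G1/S genes and 87.3 FPKM for mitotic genes. *Top2a*, the topoisomerase that untangles sister chromatids, was highest at 335.9, 340.4, 364.3 and 373.8 FPKM in Scrambled replicates 2 and 3 and Itgb6-siRNA replicates 1 and 3. *Pcna*, the sliding clamp of the DNA polymerases, came next at 263.9, 256.8, 266.4 and 268.0 FPKM. These levels were followed by *Mcm7* (153.5 FPKM on average), *Cdk1*, the kinase that drives entry into mitosis (148.1 FPKM), *Birc5* or survivin (131.9 FPKM) and *Aurka* (128.4 FPKM). The neighbours *Birc5* and *Aurka* overlapped, with ranges of 127 to 135 FPKM and 125 to 132 FPKM over the libraries.

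At the low end, *Ccnd2*, which encodes cyclin D2, had 3 and 19 counts in the Scrambled and 18 and 23 in the Itgb6-siRNA libraries, or 0.38 FPKM on average. Its relatives *Ccnd1* (44.4 FPKM) and *Ccnd3* (78.0 FPKM) were far more abundant. The other low genes were *Gins2*, a part of the active helicase (9.17 FPKM), both cyclin E genes *Ccne2* (10.0 FPKM) and *Ccne1* (10.3 FPKM), and *Orc1*, the largest origin recognition subunit (12.0 FPKM). Among the 6 helicase subunits, which stand in equal number in the ring, *Mcm7* was the highest and *Mcm4* (70.4 FPKM) and *Mcm2* (70.4 FPKM) the lowest. Of the kinases of the G1/S step, *Cdk4* (125.7 FPKM) stood above *Cdk6* (31.0 FPKM) and *Cdk2* (23.5 FPKM) in every library. The count of *Mcm7* includes reads that may belong to *Ap4m1* and *Cops6* on the opposite strand, since the libraries kept no strand.

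**Figure D1:**
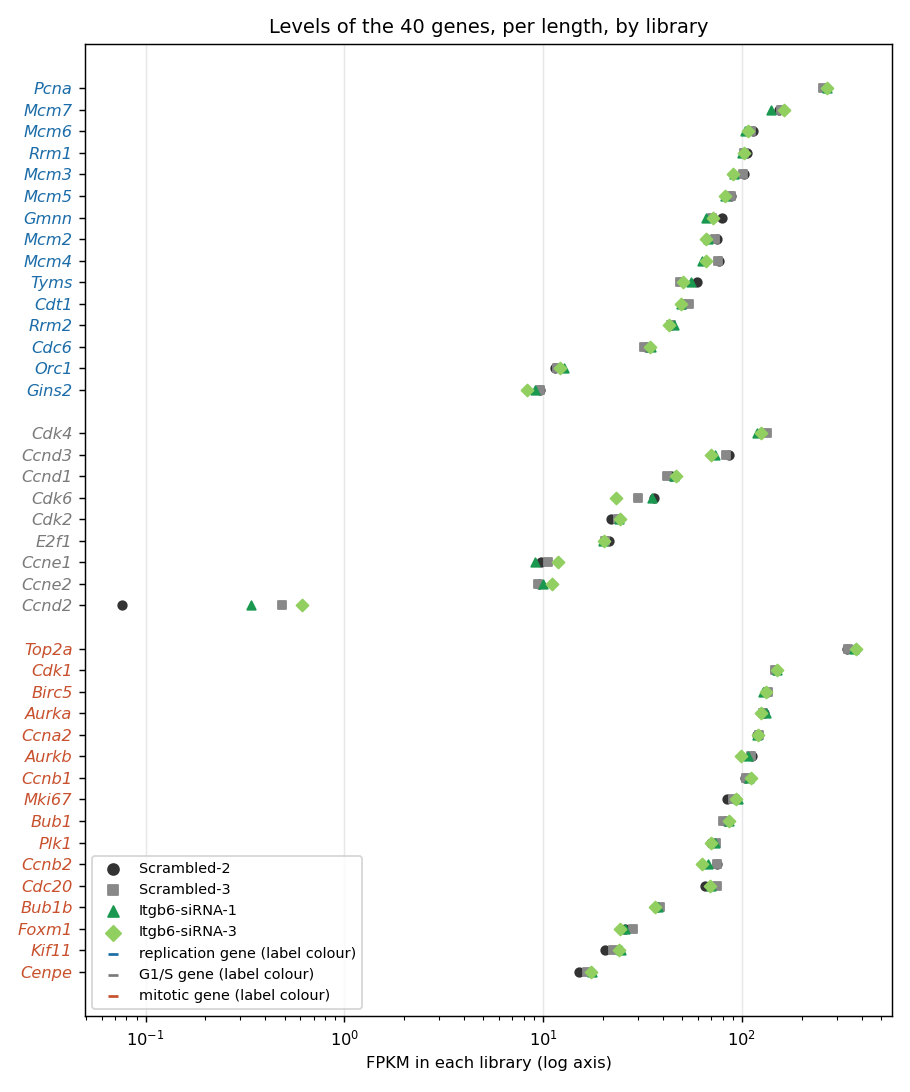
FPKM of each of the 40 genes in each of the 4 libraries, on a log axis, ordered by mean level within the replication, G1/S and mitotic groups; each point is 1 library. *Top2a* and *Pcna* lay above 250 FPKM in every library, and *Ccnd2* lay below 1 FPKM in every library.

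The comparison of the labels asked whether the replication and mitotic programmes differed when the siRNA against *Itgb6* was used. All 40 genes passed the filter on low counts. At an adjusted p under 0.05 in edgeR's quasi-likelihood test, *Cdk6* rose and no gene fell, where 2.11% of all 11727 genes tested rose and 2.52% fell. At an unadjusted p under 0.05, 5 of the 40 were higher and 5 lower, where 8.8% of all genes were higher and 9.62% lower. No member was called lower by DESeq2, the likelihood ratio test or the exact test either. The share of all genes called by these tests was not counted, so this cannot be set against it. With the thresholds the study names, a fold over 1.2 together with p under 0.05 before adjustment, 1 was higher and 0 lower, against 4.37% and 5.2% of all genes. The values of the 2 groups did not overlap for 25 of the 40 genes (15 higher and 10 lower), or 62.5%, against 49.2% of all genes. The 15 include *Ccnd2*, whose few counts fix no direction. The median log2 difference over the 40 was 0.00 and that over all genes tested was 0.00.

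The intervals were narrow for most genes, but they measure only the spread between these libraries, which may be technical. They also leave out the trend with GC content described further on, whose removal, with that on length, moved *Ccne2* from 0.16 to 0.02. The 95% interval lay inside a 1.2-fold change in either direction for 28 of the 40 genes. Apart from *Ccnd2*, it reached 0.09 to 0.27 on the log2 scale to each side of the estimate, with a median of 0.12. The 12 genes whose interval went past 1.2-fold were *Mcm4*, *Gmnn*, *Orc1*, *Gins2*, *Ccnd2*, *Cdk6*, *Ccne1*, *Ccne2*, *Cdk2*, *Ccnb2*, *Kif11* and *Cenpe*. In a bulk culture, fewer cells in a phase of the cycle and less RNA per cell cannot be told apart.

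**Figure D2:**
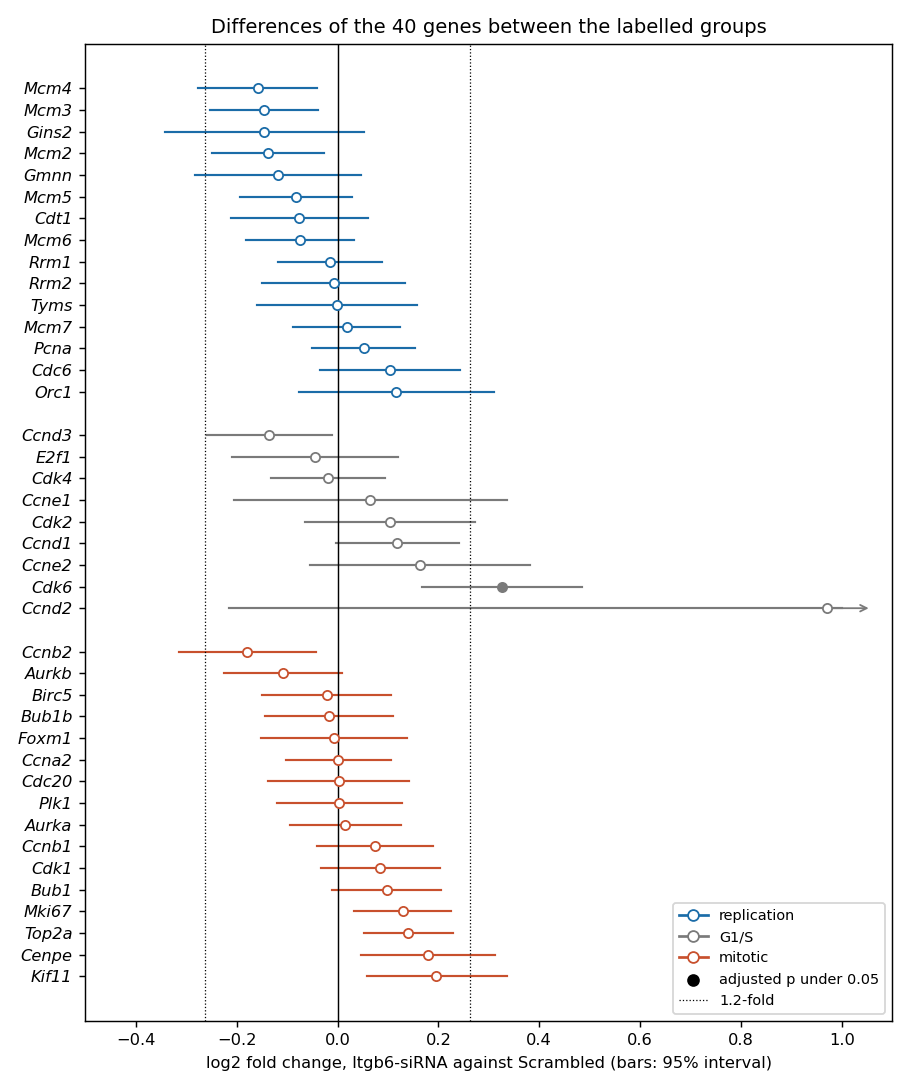
Log2 fold change of each of the 40 genes, Itgb6-siRNA against Scrambled, with its 95% interval from edgeR; the dotted lines mark 1.2-fold, a filled point an adjusted p under 0.05, and the arrow an interval that runs on to 2.15 for *Ccnd2*. *Cdk6* is the filled point, at 0.33, and most intervals lie between the dotted lines.

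Of the helicase subunits, 5 of 6 were lower in both Itgb6-siRNA libraries than in both Scrambled libraries, none past the adjusted threshold. Of all genes tested, 49.2% had groups that did not overlap, in either direction. *Mcm2* was at 252 and 245 CPM in Scrambled and at 228 and 225 CPM in Itgb6-siRNA (log2 difference -0.14 ± 0.05, SE, adjusted p = 0.149). *Mcm3* was at 307 and 306 CPM and at 275 and 278 CPM (-0.15 ± 0.05, adjusted p = 0.106). *Mcm4* was at 246 and 243 CPM and at 207 and 232 CPM (-0.16 ± 0.06, adjusted p = 0.115). The replicates of *Mcm2* and *Mcm3* lay close together on either side of the gap, while *Mcm4* was lowest in replicate 1 of Itgb6-siRNA and passed the adjusted threshold when replicate 3 of Itgb6-siRNA was left out (-0.24, adjusted p = 0.0102). *Mcm5* (-0.08 ± 0.05) and *Mcm6* (-0.08 ± 0.05) lay lower by smaller amounts, with Itgb6-siRNA values of 227 and 234 CPM and of 302 and 318 CPM. *Mcm7* overlapped between the groups, at 337 and 347 CPM in Scrambled and 337 and 356 CPM in Itgb6-siRNA (0.02 ± 0.05). Summed over the 6 subunits, the level was 1717 and 1707 CPM in Scrambled and 1575 and 1642 CPM in Itgb6-siRNA, and the median log2 difference was -0.11. Counts and FPKM of *Mcm3* imply the same length of 3031 bases in all libraries, so its FPKM repeats its counts. For *Mcm4* and *Mcm7* this length differed between libraries. *Mcm4* was at 76.4 and 76.1 FPKM in Scrambled and 62.8 and 66.3 FPKM in Itgb6-siRNA. *Mcm7* overlapped, at 154.3 and 157.5 FPKM and at 139.7 and 162.4 FPKM.

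**Figure D3:**
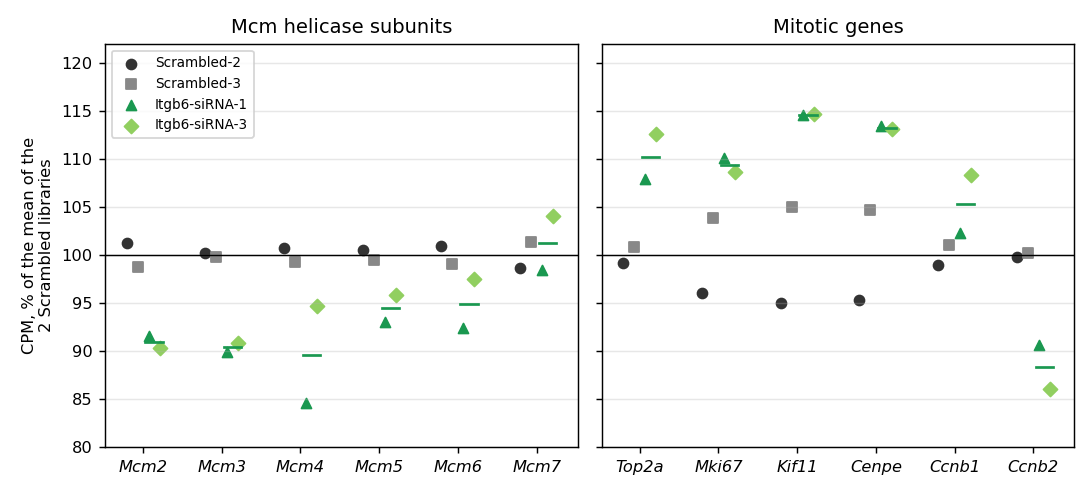
CPM of the 6 helicase genes (left) and of 6 of the 16 mitotic genes (right) in each library, as a percentage of the mean of the 2 Scrambled libraries. The green lines are the means of the 2 Itgb6-siRNA libraries. The mitotic genes shown are those with an unadjusted p under 0.05 in edgeR's quasi-likelihood test, and *Ccnb1*. *Mcm2* to *Mcm6* lie below 100% in both Itgb6-siRNA libraries, *Kif11* and *Cenpe* lie above it in both, and *Ccnb2* lies below it in both; none of these passed the adjusted threshold.

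The factors that load the helicase did not share this order. *Cdc6*, the loading ATPase, was at 95.7 and 99.8 CPM in Scrambled and at 104 and 106 CPM in Itgb6-siRNA (0.10 ± 0.07, adjusted p = 0.440). *Orc1* was at 34.2 and 35.1 CPM and at 38.2 and 37.0 CPM (0.12 ± 0.10). *Cdt1*, its partner in loading, lay at 111 and 118 CPM and at 108 and 109 CPM (-0.08 ± 0.07). For these 3 genes the groups did not overlap, which held for 49.2% of all genes. *Cdc6* and *Orc1* were on the higher side and *Cdt1* on the lower side. *Gmnn*, which encodes geminin, overlapped between the groups (-0.12 ± 0.08), and *Gins2*, at 37.5 and 37.6 CPM against 35.3 and 32.7 CPM, did not (-0.14 ± 0.10). The clamp *Pcna* was at 398 and 389 CPM and at 403 and 412 CPM (0.05 ± 0.05). The genes that make the deoxynucleotides differed least: *Rrm1* and *Rrm2*, the subunits of ribonucleotide reductase, had log2 differences of -0.02 ± 0.05 and -0.01 ± 0.07, and *Tyms*, thymidylate synthase, 0.00 ± 0.08. All 3 overlapped between the groups. Over the 15 replication genes, 4 were higher and 11 lower, with a median of -0.08, and 3 were lower at an unadjusted p under 0.05, against 9.62% of all genes.

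Among the genes of the G1/S step, *Cdk6*, which pairs with the D-type cyclins, rose in counts. *Cdk6* (ENSMUSG00000040274, chromosome 5, 3341485 to 3531008 on the plus strand of GRCm38) had 1193 and 1345 counts in Scrambled and 1580 and 1439 in Itgb6-siRNA, or 73.2 and 77.9 CPM against 102 and 87.4 CPM. Both Itgb6-siRNA libraries stood above both Scrambled libraries, with replicate 1 the highest. The log2 difference was 0.33 ± 0.08 (95% interval 0.17 to 0.48, a fold change of 1.25, adjusted p = 0.0100). The deposited FPKM did not show this order, at 35.9 and 29.9 FPKM in Scrambled and 35.1 and 23.2 FPKM in Itgb6-siRNA. The length implied by the counts, the library totals and the FPKM was 2050 and 2615 bases in Scrambled and 2919 and 3717 bases in Itgb6-siRNA, 1.81 times apart from the lowest to the highest library. By contrast, this length was the same in all libraries to within 0.1% for 17 of the 40 genes, and more than 1.1 times apart for 6 of them, *Cdk6*, *Ccnd2*, *Tyms*, *Mcm7*, *Foxm1* and *Ccnd3*. Counts and implied length were both higher in the Itgb6-siRNA libraries. Within Scrambled the library with more counts, replicate 3, had the longer length. Within Itgb6-siRNA the library with more counts, replicate 1, had the shorter length. The relation of counts and length was not tested. The adjusted p was 0.383 without Scrambled replicate 2 (0.28), 0.0855 without Scrambled replicate 3 (0.38), 0.140 without Itgb6-siRNA replicate 1 (0.21) and 0.0542 with trends on GC content and length removed (0.26). An antisense gene without an entry in the table, *Gm17590*, overlaps *Cdk6*, and reads of the 2 strands cannot be told apart.

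**Figure D4:**
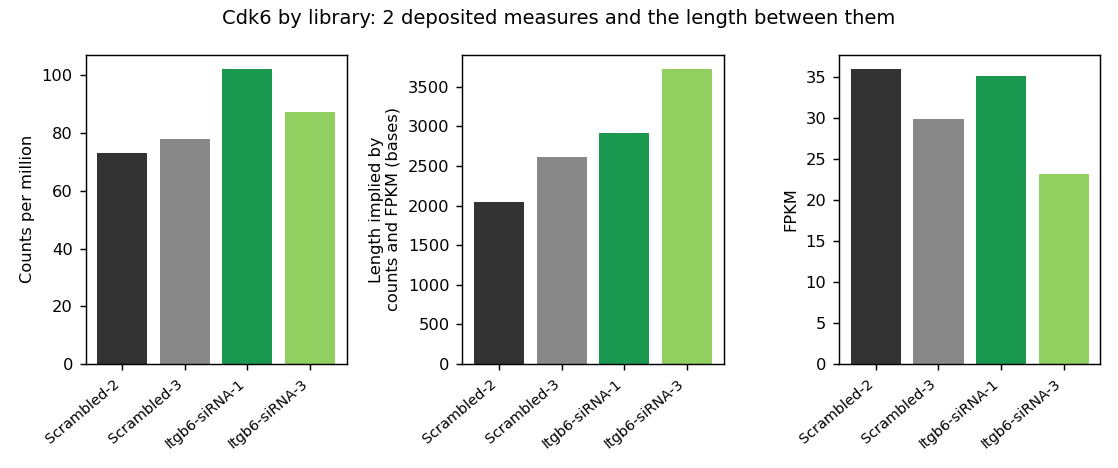
*Cdk6* in each library as CPM (left), as the length in bases implied by counts and FPKM (middle) and as FPKM (right); each bar is 1 library. The counts are higher in both Itgb6-siRNA libraries, the implied length ranges from 2050 to 3717 bases, and the FPKM values of the groups overlap.

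The cyclins that pair with these kinases lay on either side of 0. *Ccnd1* was at 163 and 156 CPM in Scrambled and at 169 and 177 CPM in Itgb6-siRNA (0.12 ± 0.06, adjusted p = 0.289). *Ccnd3* lay in the other direction, at 153 and 158 CPM and at 144 and 139 CPM (-0.13 ± 0.06, adjusted p = 0.224). In both the groups did not overlap, as in 49.2% of all genes, and neither passed the adjusted threshold. *Ccnd2* was at 0.18 and 1.1 CPM and at 1.16 and 1.40 CPM, which gave 0.97 with an interval from -0.21 to 2.15, so its few counts fix no direction. *Ccne2* was at 27.7 and 27.5 CPM and at 29.1 and 32.7 CPM (0.16 ± 0.11), and *Ccne1* overlapped between the groups (0.07 ± 0.13). *Cdk2* was at 49.7 and 54.4 CPM and at 55.1 and 56.8 CPM (0.10 ± 0.08). *Cdk4* (-0.02 ± 0.06) and *E2f1*, a factor that switches on replication genes (-0.04 ± 0.08), overlapped. Of the 9 genes, 6 were higher and 3 lower, and the median was 0.10, with *Ccnd2* counted among the higher ones. Exons of *Ccnd1*, *Ccnd3*, *Ccne2*, *Cdk2* and *Cdk4* overlap a gene of the other strand, as do those of *Ccna2*, *Cdc20* and *Gins2*.

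Of the mitotic genes, 4 stood higher in Itgb6-siRNA and 1 lower of 16 at an unadjusted p under 0.05, against 8.8% and 9.62% of all genes, and none passed the adjusted threshold. *Top2a* was at 1743 and 1772 CPM in Scrambled and at 1896 and 1979 CPM in Itgb6-siRNA (0.14 ± 0.04, adjusted p = 0.0529). The nearest to the threshold among the 39 genes not called, it passed it with DESeq2 (adjusted p = 0.0240), RLE factors (0.0441), library size only (0.0374), no filter (0.0123), a minimum of 10 counts in every library (0.0469) and without Itgb6-siRNA replicate 1 (8.29e-05). Its adjusted p was 0.235 after removal of the trends on GC content and length and 0.562 and 0.235 without Scrambled replicate 2 or 3. *Kif11*, the motor that separates the spindle poles, was at 97.8 and 108 CPM and at 118 and 118 CPM (0.20 ± 0.07, adjusted p = 0.0929). *Cenpe*, a kinesin of the kinetochore, was at 117 and 129 CPM and at 139 and 139 CPM (0.18 ± 0.06, adjusted p = 0.109). In both, the Itgb6-siRNA libraries were nearly equal and Scrambled replicate 2 was the lowest. *Mki67*, the marker of dividing cells, was at 841 and 909 CPM and at 963 and 950 CPM (0.13 ± 0.05, adjusted p = 0.114), and passed the threshold without Itgb6-siRNA replicate 3 (0.14, adjusted p = 0.0474).

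*Ccnb2* lay against this order, at 114 and 114 CPM in Scrambled and 103 and 98.2 CPM in Itgb6-siRNA (-0.18 ± 0.07, adjusted p = 0.124). Its partner in function *Ccnb1*, the other B-type cyclin of CDK1, was at 207 and 211 CPM and at 213 and 226 CPM (0.07 ± 0.06). *Cdk1* itself was at 178 and 183 CPM and at 186 and 196 CPM (0.09 ± 0.06). The intervals of *Ccnb1* and *Cdk1* include 0, so only *Ccnb2* of these 3 had an interval on 1 side of 0. *Bub1*, a kinase of the spindle checkpoint, was at 280 and 274 CPM and at 293 and 298 CPM (0.10 ± 0.05), whereas *Bub1b*, its relative, overlapped (-0.02 ± 0.06). *Aurkb*, the kinase of the chromosomal passenger complex, was at 217 and 216 CPM and at 208 and 193 CPM (-0.11 ± 0.06, adjusted p = 0.317). The other members overlapped between the groups and had log2 differences between -0.02 and 0.02. They were *Birc5*, which belongs to the same complex, *Aurka*, the kinase of the spindle poles, *Plk1*, the polo-like kinase, *Cdc20*, which activates the anaphase-promoting complex, *Ccna2*, the A-type cyclin of S phase and G2, and *Foxm1*, the factor of mitotic promoters. The reads of *Foxm1* also share exons with *Tex52* and *Gm44596* on the same strand.

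Set side by side, the sums of replication and mitotic genes lay in opposite directions, but a few abundant genes weighed heavily in them. The 15 replication genes summed to 3045 and 3016 CPM in Scrambled and 2885 and 2978 CPM in Itgb6-siRNA. Of this, the 6 helicase genes made up 1717 and 1707 CPM and 1575 and 1642 CPM. The 16 mitotic genes summed to 5022 and 5200 CPM and to 5385 and 5448 CPM. Of this, *Top2a* made up 1743 and 1772 CPM and 1896 and 1979 CPM. *Mki67* made up 841 and 909 CPM and 963 and 950 CPM. Sums and ratios without these genes were not made, so no shift of a whole class is shown. The ratio of mitotic to replication counts was 1.65 and 1.72 in Scrambled and 1.87 and 1.83 in Itgb6-siRNA, higher in both Itgb6-siRNA libraries. The 9 G1/S genes summed to 769 and 777 CPM and to 789 and 803 CPM. By gene rather than by sum, the median log2 difference was -0.08 for replication genes and 0.01 for mitotic genes, 0.08 apart, and 0.03 apart without Scrambled replicate 2. With 2 libraries against 2, an exact permutation test of such a ratio cannot go below p = 0.333, so no test was made. Genes of a class share libraries and are not replicates of it.

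The log2 differences went with base composition, and were lower where the GC content was higher. Over the 11709 genes tested with known transcripts, Spearman's rho between the log2 difference and the GC content of the transcript was -0.364. The median log2 difference was 0.11 for genes under 42% GC and -0.12 for genes at 58% or more. Over the 40 genes, which share the same 4 libraries, rho was -0.525 and Pearson's r was -0.373, and without *Ccnd2* they were -0.527 and -0.541. *Kif11* (42.2% GC), *Cenpe* (42.9%) and *Top2a* (43.4%) were low in GC and higher in Itgb6-siRNA, while *Mcm2* (51.7%), *Mcm3* (52.6%) and *Gins2* (53.4%) were higher in GC and lower in Itgb6-siRNA. Other genes lay off this line. Examples are *Mcm4* (45.5%) and *Ccnb2* (49.3%) below it, and *Cdk6* (45.1%, 0.33) and *Ccnd1* (50.9%, 0.12) above it. With trends on GC content and length removed from each library, rho over the 40 genes was -0.093. The removal is built to take this relation out, so this rho is no result about the genes. None of the 40 was then called at an adjusted p under 0.05 in edgeR, where 0.948% of all genes were called higher and 0.888% lower. At an unadjusted p under 0.05 there were 4 higher and 2 lower of the 40, against 7.77% and 7.27% of all genes. By class, 2 mitotic genes were then higher and 1 lower, 0 replication genes higher and 1 lower, and 2 G1/S genes higher and 0 lower. The medians were then -0.05 for replication genes, 0.10 for G1/S genes and 0.05 for mitotic genes, and -0.09 for the 6 helicase genes. The largest movements were those of *Ccne2* (36.3% GC), from 0.16 to 0.02, and of *Ccnd3* (56.7%) and *E2f1* (58.3%), from -0.13 to -0.02 and from -0.04 to 0.07. *Mcm4* went from -0.16 to -0.18 (adjusted p = 0.0886) and *Ccnb2* from -0.18 to -0.20.

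**Figure D5:**
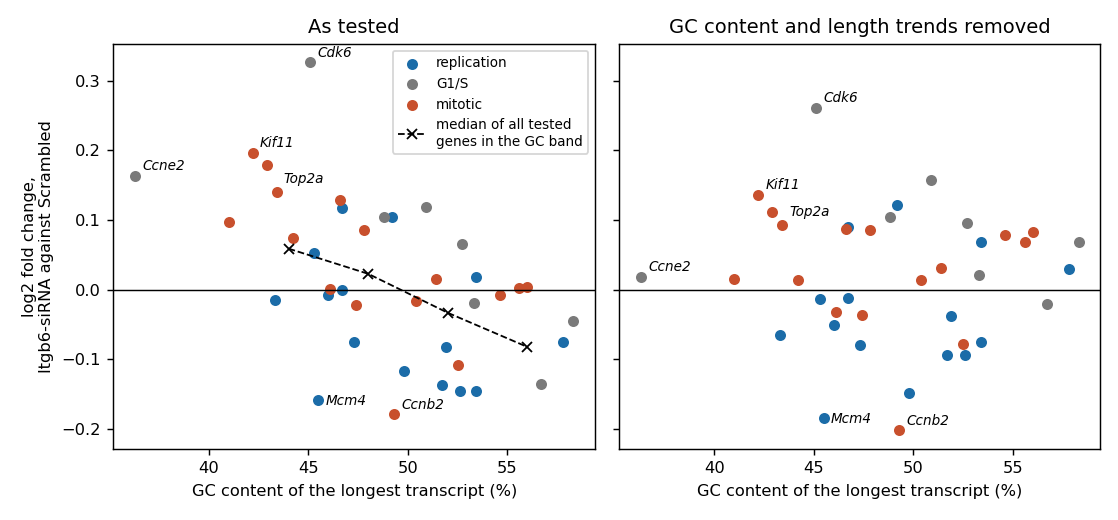
Log2 fold change, Itgb6-siRNA against Scrambled, against the GC content of the longest transcript for 39 genes (*Ccnd2* is left out), as tested (left) and with GC content and length trends removed (right); the crosses are medians of all genes tested in 4 GC bands. The points fall with GC content on the left, and *Mcm4* and *Ccnb2* remain lowest on the right.

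In the wider lists, 1 of 50, 1 of 64 and 2 of 34 genes passed the adjusted threshold, where 2.11% of all genes rose and 2.52% fell. Of 50 other replication genes, 24 were higher and 26 lower (median -0.01), 0 rose and 1 fell in edgeR's test at an adjusted p under 0.05, with 2 higher and 4 lower at an unadjusted p under 0.05, against 8.8% and 9.62% of all genes. The gene that fell was *Pold1*, the catalytic subunit of DNA polymerase δ, at 103 and 99.7 CPM in Scrambled and 80.2 and 79.0 CPM in Itgb6-siRNA (-0.35 ± 0.07, adjusted p = 0.00227). It has 61.0% GC, and its difference was -0.19 (adjusted p = 0.156) after removal of the trends and -0.33 (adjusted p = 0.200) without Scrambled replicate 2. Of 64 other mitosis genes, 46 were higher and 18 lower (median 0.05), where 5869 of 11727 genes were higher, and 9 were higher and 2 lower at an unadjusted p under 0.05. With the trends removed the counts were 41 and 23 and the median 0.02. Among them *Smc4*, a condensin subunit, rose, at 584 and 598 CPM and at 667 and 681 CPM (0.19 ± 0.05, adjusted p = 0.0148). It has 40.2% GC, and the adjusted p was 0.224 (0.11) with the trends removed, 0.426 (0.17) without Scrambled replicate 2 and 0.123 (0.21) without Scrambled replicate 3.

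Of 34 regulators of the cycle, 19 were higher and 15 lower (median 0.04), and 2 passed the threshold. *Cdkn1b*, which encodes the kinase inhibitor p27, rose, at 118 and 127 CPM in Scrambled and 149 and 138 CPM in Itgb6-siRNA (0.22 ± 0.07, adjusted p = 0.0449). *Rbl1*, which encodes p107, a relative of the retinoblastoma protein that holds E2F factors back, fell, at 105 and 95 CPM and at 87.8 and 79.1 CPM (-0.26 ± 0.07, adjusted p = 0.0389). In both the groups did not overlap, as in 49.2% of all genes. With the GC and length trends removed, *Cdkn1b* was at 0.17 (adjusted p = 0.161) and *Rbl1* at -0.32 (adjusted p = 0.0192). DESeq2 called neither (adjusted p = 0.0680 and 0.0818), *Cdkn1b* was not called with library size only (0.0746), and *Rbl1* was not called with RLE factors (0.0505). Both lost the call without Scrambled replicate 2 (adjusted p = 0.578 for each) and without Scrambled replicate 3 (0.124 and 0.0993), *Cdkn1b* also without Itgb6-siRNA replicate 1 (0.184), and *Rbl1* without Itgb6-siRNA replicate 3 (0.258).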

How the data were processed

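Paired reads of poly(A) RNA, with no strand kept, were turned by the authors into estimated counts per gene, without normalization, of which 1447 to 1500 a library are not whole. The authors also deposited FPKM values of the same libraries. The aligner, counter, build and annotation are not given in the sources used here. Counts were rounded, filtered (filterByExpr, minimum count 10, total 15, leaving 11727 of 22063 genes), normalized by TMM and tested with edgeR 4.0.16 (quasi-likelihood, R 4.3.3) with Benjamini-Hochberg adjustment over all genes tested, at an adjusted p under 0.05. CPM values are TMM-scaled. FPKM served for levels between genes. Implied length is counts over FPKM and library total. The common biological coefficient of variation was 0.0551. Tests were also run on counts simulated with means and a common dispersion taken from these data. Alternatives were DESeq2 1.42.0, edgeR's likelihood ratio and exact tests, other scalings and filters, the thresholds the study names, lowess removal of GC and length trends, and leaving out each library. All 40 genes were named, of wider lists those called. GENCODE vM21 (GRCm38) matched 99.6% of genes. Members and lists were chosen with earlier results of these data known. 1 leukocyte marker was left out of its list and is not reported here.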

Additional observations from a re-analysis of the deposited data

How the results depend on the processing

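No paired analysis was possible because the groups share only replicate number 3. The 40 genes called higher numbered 2 (*Cdk6* and *Top2a*) with DESeq2, RLE factors, library size only, no filter and at least 10 counts in every library, and 0 with GC and length trends removed. With the trends removed, 0.948% of all genes were called higher and 0.888% lower. Apart from edgeR's quasi-likelihood test and the study's thresholds, given above, the share of all genes called was not counted for the other settings. Their counts here and below therefore cannot be set against it. Leaving out each library gave 0 to 2 higher and 0 to 1 lower. In a fit without a library, the lone library left is assumed to vary like the other group. Other replication genes called numbered 2 with the likelihood ratio test, the exact test, library size only, no filter and at least 10 counts in every library, 0 with the trends removed, and 0 to 3 without a library. Other mitosis genes called numbered 3 with the likelihood ratio test, the exact test, no filter, at least 10 counts in every library and the study's thresholds, and 0 to 1 without a library. Regulators called numbered 0 with DESeq2, 1 with RLE factors, library size only or the trends removed, and 0 to 2 without a library.

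The median of mitotic genes was 0.0499 with the trends removed. Without a library, the medians ranged from -0.0812 to -0.0313 for replication genes, 0.0391 to 0.151 for G1/S genes and -0.0009 to 0.0734 for mitotic genes, the mitotic minus replication median from 0.0304 to 0.1194, and *Itgb6* from -0.1034 to 0.0909. The sign turned in genes near 0. With the trends removed these were *Bub1b* (0.0134), *Ccna2* (-0.0325), *Cdk4* (0.0206), *Cdt1* (0.0297), *E2f1* (0.0688), *Foxm1* (0.0783) and *Pcna* (-0.0131). With library size only they were *Ccna2* (-0.0134), *Cdc20* (-0.0121) and *Plk1* (-0.0107), and *Tyms* was at 0.0016 with DESeq2, 0.0017 with RLE factors and 0.0003 with at least 10 counts in every library. Without a library the ranges crossed 0 for *Aurka* (-0.0094 to 0.0419), *Bub1b* (-0.0451 to 0.015), *Ccna2* (-0.0212 to 0.0266), *Ccne1* (-0.167 to 0.2612), *Cdc20* (-0.0994 to 0.1154), *Cdk4* (-0.0559 to 0.018), *Foxm1* (-0.0955 to 0.0782), *Mcm7* (-0.0203 to 0.0562), *Plk1* (-0.0427 to 0.0545), *Rrm1* (-0.0471 to 0.0172), *Rrm2* (-0.0512 to 0.0366) and *Tyms* (-0.042 to 0.0432). The cause was not tested. Depth limited *Ccnd2*, with 3 to 23 counts. It gave no value with at least 10 counts in every library, and DESeq2 gave no adjusted p for it, *Ccne1* or *Itgb6*.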
